A study of Arabidopsis thaliana with 2 samples.

Results

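CRA1 and PAP85 are seed storage protein genes that appear in 4 of the 270 splicing events listed for lefko mutant and wild-type embryos of Arabidopsis thaliana, the thale cress. CRA1 (AT5G44120) encodes a cruciferin, a legumin-type globulin that is among the main storage proteins of the seed. PAP85 (AT3G22640) encodes a vicilin-like globulin, and both proteins belong to the cupin fold family. The events were taken by position: any row of the 4 event tables with an exon inside either gene was used, which gave 3 events in CRA1 and 1 in PAP85. The tables list 227 gene identifiers in all. Both genes were picked out with their read numbers already known, so the levels below are a description and carry no test.

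The 2 groups were wild-type Col-0 embryos and embryos of the lefko mutant, also in the Col-0 ecotype, with 1 sample each. Embryos were dissected at the globular to heart stages, which precede seed filling, although the source of both samples is labelled as seeds. The mutant sample is labelled lefko1, while the series title and the column headings say lefko2, and the series holds no other mutant sample. No label names the mutated gene or says whether the plants came from 1 line, so the mutation itself was not checked. The tables hold only events with an FDR of up to 0.05 as the authors' caller gave it, so every listed event was selected for a difference in its share of inclusion reads. Each count cell joins 3 whole numbers per genotype, called here values 1 to 3, and what the 3 numbers stand for is not labelled. They were summed, each genotype was counted as 1 sample, and the 3 values are given beside the sum.

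Storage globulins are made in the endoplasmic reticulum of the embryo and endosperm, moved to protein storage vacuoles, cleaved there by vacuolar processing enzymes, and broken down at germination to feed the seedling. Their genes are known targets of the maturation regulators LEC1, LEC2, FUS3 and ABI3. LEC2, FUS3 and ABI3 carry a B3 DNA-binding domain that recognises the RY repeat, a sequence containing CATGCA. Transcripts of storage globulin genes are known to build up during seed filling, after the embryo has its pattern.

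What the tables list as splicing at both genes joins the 3′ end of the transcript to a distant run of A. CRA1 lies on the minus strand of chromosome 5 (17756238 to 17758336, TAIR10 coordinates) and has 4 exons and 472 codons in its longest annotated transcript. PAP85 lies on the minus strand of chromosome 3 (8011724 to 8013941) and has 5 exons and 486 codons. In all 3 CRA1 events the exon of the gene begins where its last annotated exon begins, at 17756864, and it ends at 17756287, 17756293 or 17756297. These are called the outer, middle and inner ends, and they lie 173, 167 and 163 bases past the last coding base, within a 3′ UTR annotated with 222 bases. The PAP85 exon is the annotated last exon as well, with ends at 8011725 and 8011728, which are 1 and 4 bases inside the annotated gene end. No listed end falls within coding sequence or at an annotated intron.

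The bases before the inner ends are shown because each holds AATAAA, the canonical polyadenylation signal after which a messenger RNA is cleaved and receives its poly(A) tail. AATAAA is in capitals, and each line gives the last 30 bases up to the inner end, on the gene strand (CRA1, chr5:17756297-17756326; PAP85, chr3:8011728-8011757).
CRA1 inner end: ctgAATAAAatcttttcaattttcgatcaa
PAP85 inner end: ttAATAAAaccaacggtttagttataaccc

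The signal lay 21, 25 and 31 bases before the inner, middle and outer ends of CRA1, and 22 and 25 bases before the ends of PAP85. Among all alternative 5′ splice site events spanning over 10 kb, 8 of 31 (25.8%) had AATAAA within 50 bases before an end, those of CRA1 and PAP85 included, against 0 of the 39 events that join closer sites. The 20 bases before an end held at most 40.0% A, at the outer CRA1 end, and the 20 bases after an end at most 45.0%, at the middle CRA1 end.

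**Figure D1:**
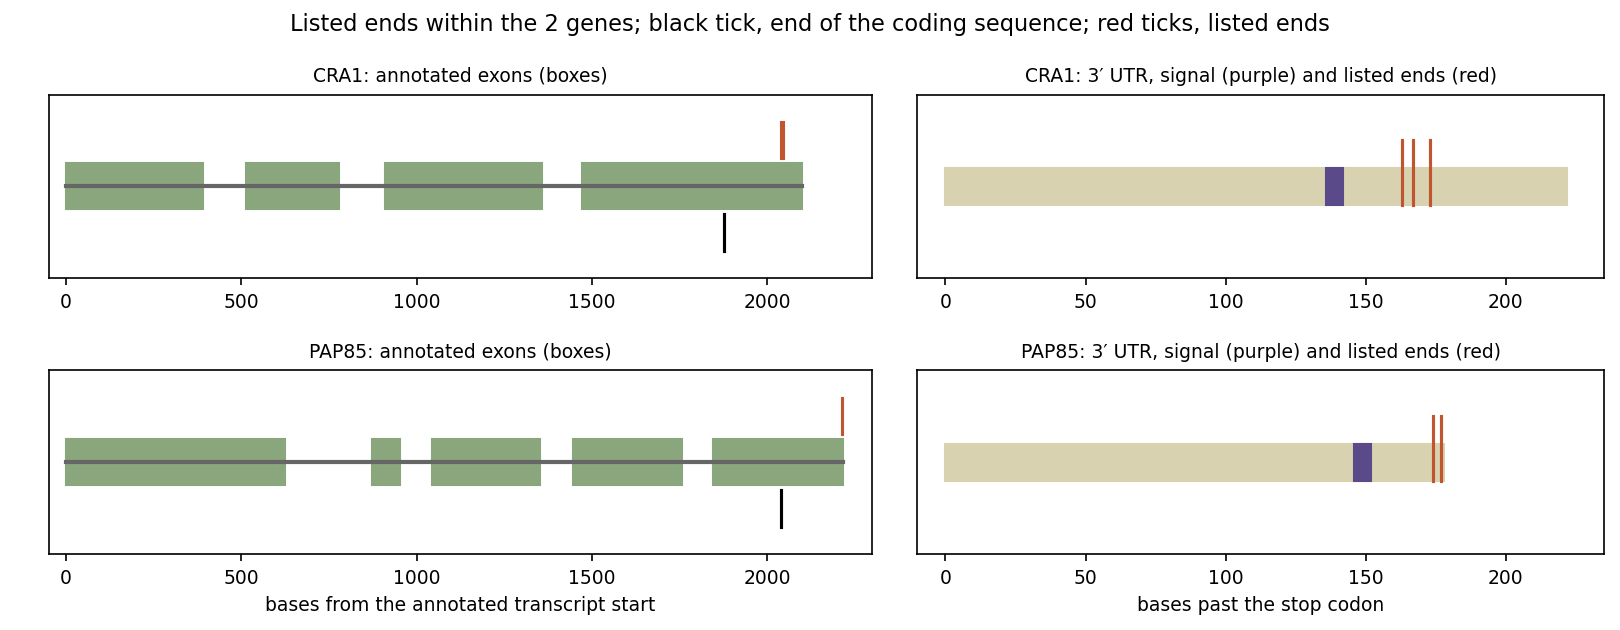
Left, annotated exons of CRA1 and PAP85 as boxes against bases from the annotated transcript start, with the end of the coding sequence (black tick) and the ends listed in the event tables (red ticks). Right, the 3′ UTR in bases past the stop codon with AATAAA (purple) and the listed ends (red); the 3 CRA1 ends lie 163 to 173 bases and the 2 PAP85 ends 174 to 177 bases past the last coding base, all behind the signal.

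The distant pieces that the tables call exons hold no base other than A. They are shown, with A runs in capitals and 8 flanking bases on each side in lower case, because they are what the transcripts are listed as joined to (gene strand; chr5:17700730-17700746, chr5:17732292-17732306 and chr3:7998502-7998521 for the capitals).
Far piece of CRA1: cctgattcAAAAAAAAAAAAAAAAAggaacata
Near piece of CRA1: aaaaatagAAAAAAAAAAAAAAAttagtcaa
Piece of PAP85: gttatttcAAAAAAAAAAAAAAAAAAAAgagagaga

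The far piece of CRA1 is 17 bases long and lies 55540 bases beyond the outer end, inside SUVR2, a gene of the opposite strand. The near piece is 15 bases long, lies 23980 bases beyond the outer end and overlaps the end of AT5G44060, also of the opposite strand. It was the single run of 15 or more A on this strand between the outer end and the far piece. The PAP85 piece is 20 bases long, lies 13203 bases beyond the outer PAP85 end in intergenic sequence, and no run of 15 or more A lies between. Of the 31 alternative 5′ events over such distances, 16 had a distant exon made of A alone and 23 had one with at least 90% A, and their distant exons had a median length of 19.0 bases. The closer events have no like comparison, because their flanking exons are longer, with a median of 175 bases and a minimum of 52.

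The bases at the borders of the joined stretches differed between the pieces. From the inner CRA1 end to the near piece the stretch begins with GT and ends with AG, the usual border of an intron, although no annotated intron lies there. The near piece is listed as joined on to the far piece, with borders TT and TC. From the inner end to the far piece the borders are GT and TC, and from the outer and middle ends they are AT and TC. Both PAP85 stretches begin with AT and end with TC. Poly(A) tails are not encoded in the genome, so a read that ends in a tail and a read that crosses a junction into an A run carry the same letters. Which of them the reads are was not tested, and the inclusion shares below are given as what the tables list.

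CRA1 event reads were higher in the mutant in every event and in every joined value. The event with the middle and inner ends, called the middle-end event, is one that the tables list under MYA2, a myosin gene whose own span ends 88786 bases away. Its reads (inclusion plus skipping) were 268, 247 and 131 in the wild type and 3060, 2958 and 3319 in the mutant. The mutant values lay close together and the highest wild-type value was far below the lowest of them. The sums were 646 and 9337 reads, a ratio of 14.4 (95% exact counting interval 13.3 to 15.7), computed with 0.5 reads added to each sum. Over all 9 pairs of a mutant and a wild-type value the ratio ran from 11.0 to 25.2. The intervals here and below cover counting error only, because reads without molecular identifiers are not independent molecules.

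The CRA1 event with the outer and inner ends, called the longer-end event, had 90, 136 and 49 reads in the wild type and 1463, 1099 and 1592 in the mutant. The groups of values did not overlap. The sums of 275 and 4154 reads gave a ratio of 15.1 (13.4 to 17.1), near that of the middle-end event. Both events share the same skipping reads, so they are not separate evidence.

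The CRA1 exon skipping event, also listed under MYA2, had 39, 24 and 18 reads in the wild type and 2243, 8112 and 20021 in the mutant. Here the mutant values differed from each other several times over, and value 3 held most of the reads. The sums of 81 and 30376 gave a ratio of 373 (302 to 472). This was the highest ratio of the 270 listed events and the highest number of mutant reads, ahead of 20298 at another gene. It depends on value 3: without the third value of both genotypes the ratio was 163, and without the first it was 662. Most of the mutant reads are inclusion reads, counted for the form that holds the near piece, which numbered 2064, 7985 and 20013 in the mutant and 0, 0 and 0 in the wild type. That form has a join on each side of the near piece, and the deposited count does not divide its reads between them. Set against 3 reads over the wild type, these 30062 reads were at least 10021-fold higher in the mutant, a bound that was at least 3350-fold without value 3.

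PAP85 event reads were higher in the mutant too. They were 29, 20 and 8 in the wild type and 233, 179 and 342 in the mutant. No wild-type value reached the lowest mutant value. The sums of 57 and 754 reads gave a ratio of 13.1 (10.1 to 17.6), which was 8.33 without value 3 of both genotypes. The counting intervals of PAP85 and of the CRA1 middle-end and longer-end events overlap.

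**Figure D2:**
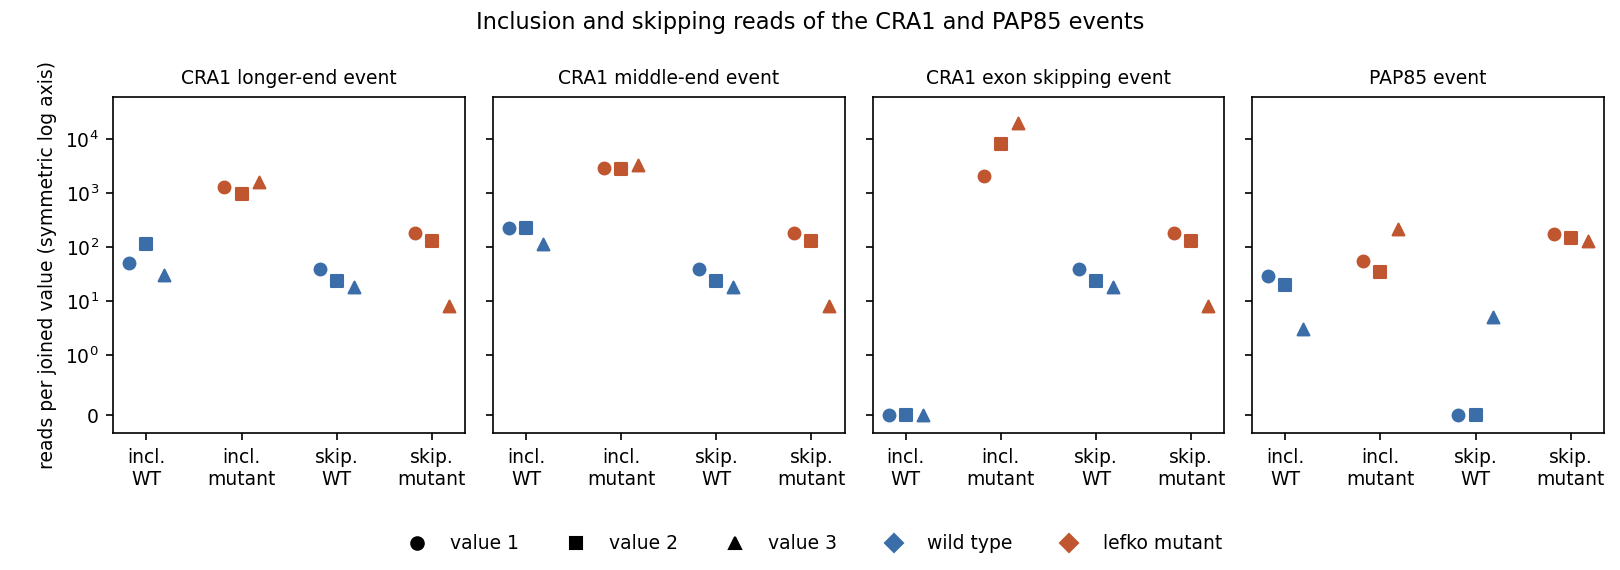
Inclusion and skipping reads of the 4 events for each joined value (circle, square and triangle for values 1 to 3) in the wild type (blue) and the lefko mutant (red), on a symmetric log axis that shows 0. Inclusion reads of the CRA1 events lie higher in every mutant value, from 31 to 112 against 972 to 1584 in the longer-end event, while the CRA1 skipping reads overlap because mutant value 3 is at 8.

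Most of the other listed events had fewer reads in the mutant. All 4 events of CRA1 and PAP85 were over 10-fold higher in the mutant. This fold was passed by 6.67% of the 270 events, and by 27.3% of the 33 events whose sites lie over 10 kb from each other. Both percentages include the 4 events themselves. In all 4 the mutant values lay wholly above the wild-type values, which held for 10.7% of all events. These counts are read as a description, since the genes were chosen by them. Across the 224 loci the median ratio was 0.476, or -1.07 on the log2 scale, and 52.2% of events were over 2-fold lower in the mutant. Relative to that median the ratios were 30.3 for the CRA1 middle-end event and 27.5 for PAP85. The 29 other events over 10 kb had a median ratio of 0.699, with a range of 0.0943 to 56.6. Events with a distant join thus lay on both sides of equal reads.

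Whole-library depth was not analysed here, so the reads of the 266 other events were used to set each value in proportion. These reads numbered 32043, 30649 and 17890 in the wild type and 28458, 27654 and 35760 in the mutant. Per 1000 of them, the CRA1 middle-end event took 8.36, 8.06 and 7.32 reads in the wild type and 108, 107 and 92.8 in the mutant. On this scale the 3 values of each genotype nearly coincided. PAP85 took 0.905, 0.653 and 0.447 in the wild type and 8.19, 6.47 and 9.56 in the mutant, again without overlap. The CRA1 exon skipping event took 78.8, 293 and 560 in the mutant, so its spread remained on this scale. In whole embryos, more RNA per cell and more cells that express a gene cannot be told apart, and with 1 sample per genotype neither can the genotype and any other difference between the samples.

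**Figure D3:**
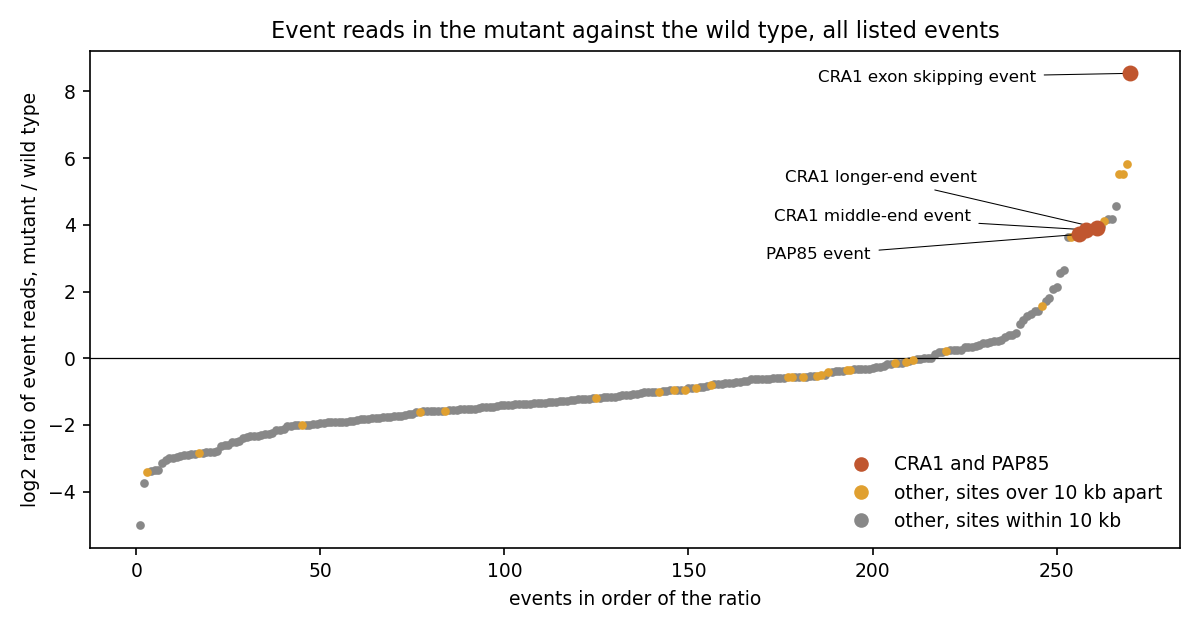
Log2 ratio of event reads in the mutant to those in the wild type for all 270 events in order of the ratio (0.5 reads added to each sum). The CRA1 and PAP85 events (red) sit at 3.71 to 3.91 and, for the exon skipping event, at 8.54, above most other events whether these join sites over 10 kb apart (orange) or not (grey).

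The share of inclusion reads was higher in the mutant in the CRA1 events and lower in the PAP85 event. In an alternative 5′ event inclusion reads are those of the longer exon, here the end farther from the stop codon. At CRA1 the outer end against the inner one had 56.7%, 82.4% and 63.3% in the wild-type values and 87.8%, 88.4% and 99.5% in the mutant values. The values did not overlap. The summed shares were 70.5% (exact Clopper-Pearson interval 64.8 to 75.9, 275 reads) and 92.4% (91.6 to 93.2, 4154 reads), and the FDR for it in the authors' deposited table is 0.000189.

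The CRA1 middle end had 85.4%, 90.3% and 86.3% in the wild type and 94.2%, 95.7% and 99.8% in the mutant, again without overlap. Summed, this was 87.5% (84.7 to 89.9, 646 reads) and 96.6% (96.3 to 97.0, 9337 reads). Its FDR is 0.0359 in the authors' deposited table. In both events inclusion reads had higher ratios of mutant to wild type than skipping reads. Inclusion reads had ratios of 19.7 (17.1 to 23.0) and 16.0 (14.7 to 17.4), and the shared skipping reads had 3.86 (3.03 to 5.01). Without value 2 of both genotypes the first of these was 34.8. The skipping reads were 39, 24 and 18 in the wild type and 179, 127 and 8 in the mutant, so that mutant value 3 lay below all wild-type values while the other mutant values lay above them.

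In the CRA1 exon skipping event the near piece was included in 0 of 81 wild-type reads. This allows a share of up to 3.70% by a limit of 3 reads, or 4.45% by the exact interval. In the mutant it was included in 92.0%, 98.4% and all but 8 of 20021 reads of the 3 values, and in 99.0% (98.8 to 99.1) of the 30376 reads together. The authors' deposited table writes its p-value and FDR as 0. The skipping reads are again those of the inner end joined to the far piece, so the 3 CRA1 events contrast 3 kinds of read with 1 common set.

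At PAP85 the end farther from the stop codon had a lower share in the mutant. The wild-type shares were 100%, 100% and 37.5%, the last from 8 reads, and the mutant shares were 24.0%, 19.0% and 62.9%. These ranges overlap. The sums gave 91.2% (80.7 to 97.1, 57 reads) and 40.5% (36.9 to 44.1, 754 reads), and the FDR in the authors' deposited table is 0.00282. Without value 3 of both genotypes the shares were 100% and 21.8%. Wild-type skipping reads were 0, 0 and 5, against 177, 145 and 127 in the mutant, a ratio of 81.7 (38.2 to 278) on the sums. Inclusion reads were 29, 20 and 3 against 56, 34 and 215, a ratio of 5.82 (4.36 to 8.03) that rests on value 3 of both genotypes and was 1.83 without it and 10.6 without value 1. The skipping ratio was 49.5 without value 1 of both genotypes, and without value 3 the wild type had 0 skipping reads. Mutant value 3 therefore had the most inclusion reads, as it had in all 3 CRA1 events. These inclusion counts were not scaled, and mutant value 3 also had the most reads of the other events (35760, against 28458 and 27654). Per 1000 of those, inclusion plus skipping reads stayed highest in mutant value 3 for PAP85 (9.56, against 8.19 and 6.47). This also held for the CRA1 exon skipping event (560, against 78.8 and 293). It did not hold for the longer-end event (44.5, against 51.4 and 39.7) or the middle-end event (92.8, against 108 and 107). The ends compared in PAP85 lie only 3 bases apart. The genotypes' shares were separated in 3 of the 4 CRA1 and PAP85 events. This held for 71.5% of all 270 events and 54.5% of the 33 over 10 kb, the 4 events included. All of these events were listed for a difference in share. The separation does not set the storage protein genes apart from the list.

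**Figure D4:**
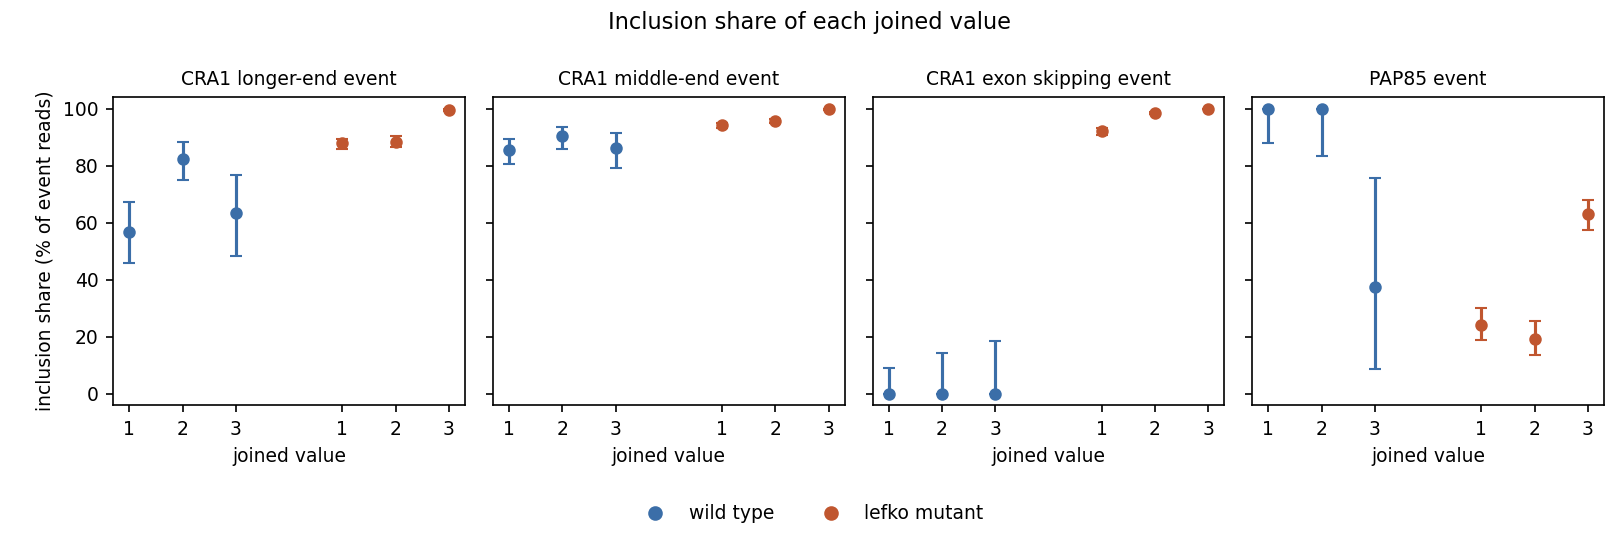
Inclusion share in percent of event reads for each joined value, with exact 95% Clopper-Pearson intervals, in the wild type (blue) and the lefko mutant (red). The 3 CRA1 events are higher in all mutant values, whereas at PAP85 the mutant values of 19.0% to 62.9% overlap the wild-type range of 37.5% to 100%.

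The loci closest to each gene were found from their profiles over the 6 joined values, as the Euclidean distance between log2(event reads + 0.5) after subtraction of each locus mean, with the event of most reads standing for a locus. The nearest to PAP85 were FOLB3, an enzyme gene of folate synthesis, at a distance of 1.06, followed by AT3G14880 (1.24), RAB18, AT2G48130 and LTI30 (1.38 each). RAB18 and LTI30 encode dehydrins, proteins known from drying seeds and water stress. The median distance of the 223 other loci was 6.20. FOLB3 had 101, 135 and 62 wild-type and 1277, 1253 and 1284 mutant reads, and AT3G14880 rested on 2, 1 and 1 wild-type reads.

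For CRA1, which the exon skipping event stands for under that rule, the nearest were AT1G14950 (4.01), XTH25 (4.69), RAB18 (4.72), LTI30 (5.27) and M17 (5.49), with a median over all of 11.50. No locus was close to this profile, which had the largest spread among mutant values of those shown. With the middle-end event in its place, a choice made after seeing the data, the nearest were FOLB3 (0.45), AT2G48130 (0.62), PAP85 (0.78), LTI30 (0.83) and RAB18 (0.99), of which 2 were among the first 5. The named loci have ratios from 12.8 (FOLB3) to 56.6 (AT1G14950), and 11 of the 224 loci (4.91%) were over 10-fold. The distance takes in the difference between the genotypes, for which CRA1 and PAP85 were picked. That their nearest loci also have high ratios thus follows from the method and is no separate finding.

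**Figure D5:**
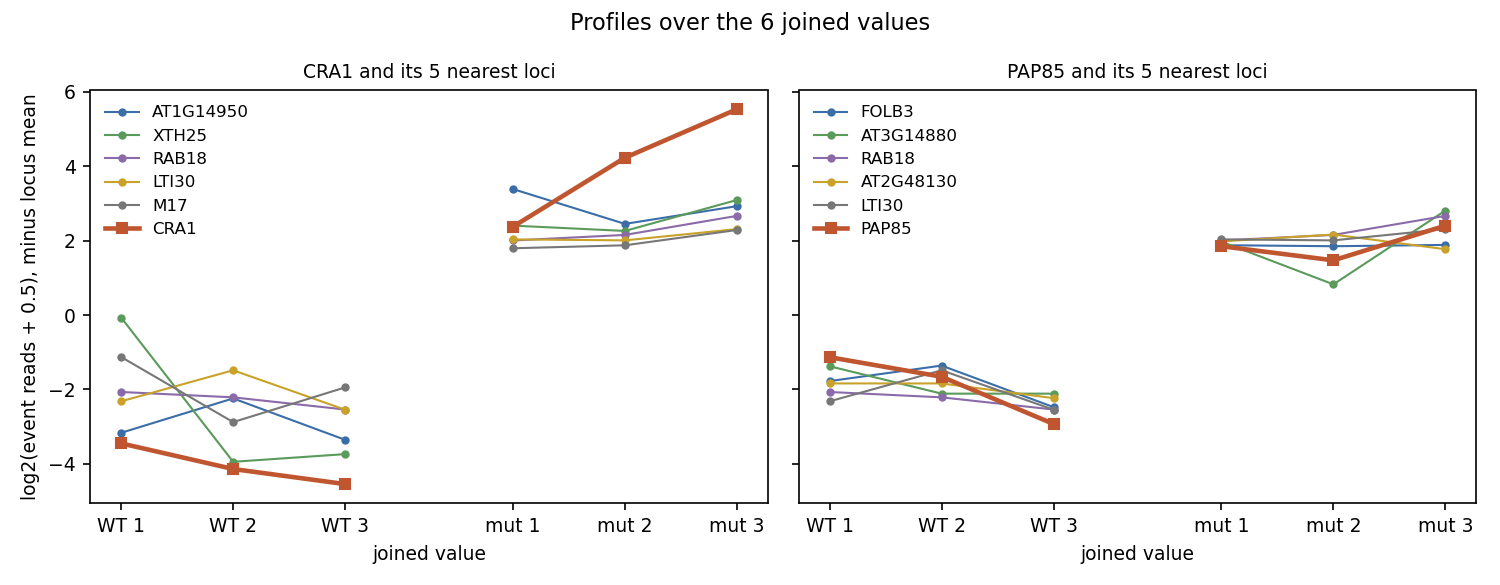
Profiles of CRA1 (exon skipping event) and PAP85 with their 5 nearest loci over the 6 joined values, as log2(event reads + 0.5) minus the mean of the locus. All loci shown are lower in the 3 wild-type values than in the 3 mutant values, and CRA1 lies above its neighbours in mutant values 2 and 3, with 8112 and 20021 reads.

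Most of the storage protein pathway had no listed event. Of 32 genes for globulins, vicilin-like proteins, albumins, oleosins, their regulators, processing enzymes and sorting factors, CRA1 and PAP85 were the 2 with an event. Both were over 2-fold higher in the mutant, a fold passed by 11.5% of all events, and 0 genes of the list were over 2-fold lower. Both genes were picked with their read numbers known, so these counts were fixed in advance and are no result about the pathway. The other cruciferin genes CRU2 and CRU3, the albumin genes SESA1 to SESA5 and the oleosin genes OLEO1 to OLEO4, for proteins that coat oil bodies, were not listed. Nor were the regulators LEC1, LEC2, FUS3 and ABI3. Of 9 marker genes of endosperm, seed coat and embryo 0 were listed, so neither the tissue nor other cell types could be checked. A gene without a listed event has no level in these tables, and its absence says nothing of its expression.

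The promoters of both genes hold the RY core. The promoters are shown because RY repeats are known elements of storage protein promoters. Whether the repeats bear on the reads in the mutant was not tested. Each is the 250 bases before the annotated start on the gene strand, with CATGCA on either strand in capitals (CRA1, chr5:17758337-17758586; PAP85, chr3:8013942-8014191).
CRA1: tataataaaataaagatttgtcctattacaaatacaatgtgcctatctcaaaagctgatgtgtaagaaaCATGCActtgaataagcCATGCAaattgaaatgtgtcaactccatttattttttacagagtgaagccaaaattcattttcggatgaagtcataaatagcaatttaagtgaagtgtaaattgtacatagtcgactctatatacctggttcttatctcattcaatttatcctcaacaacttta
PAP85: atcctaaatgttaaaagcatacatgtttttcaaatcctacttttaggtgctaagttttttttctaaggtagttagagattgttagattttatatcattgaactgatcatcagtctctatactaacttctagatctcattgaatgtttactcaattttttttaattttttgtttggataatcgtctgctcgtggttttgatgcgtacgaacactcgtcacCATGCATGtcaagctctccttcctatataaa

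Motifs were searched on both strands from 250 bases before to 50 bases after the start of 27443 protein-coding genes. CRA1 has CATGCA at 2 places on the gene strand, beginning 181 and 164 bases before the start. PAP85 has 1 full CATGCATG, which reads the same on both strands and so holds CATGCA on each, beginning 31 bases before the start. CATGCA was present in 9.72% of all these windows and CATGCATG in 0.878%. The G-box CACGTG (7.68% of windows) and ACGTG (26.7%), the core of the abscisic acid response element, were not found in either window; CACGTG contains ACGTG. These matches are letters in a window and not binding sites.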

How the data were processed

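Total RNA of dissected embryos was made into libraries with a low-input kit and sequenced, per the labels' protocols. The submitters' processing notes name HISAT2 2.0.4 and TAIR10; which program called the events is not given in the sources used here. Values that the authors deposited, per the file headers, are inclusion and skipping read counts (3 joined whole numbers in each cell), a p-value and an FDR for each event. Median event reads were 91.0 in the wild type and 43.5 in the mutant (4 to 3739 and 3 to 30376). What the joined counts stand for is not labelled and the labels give 1 sample per genotype, so no test was run. Ratios carry exact conditional binomial intervals and shares exact Clopper-Pearson intervals at 95%, computed with Python 3.11.15 and scipy 1.17.1. The ratios and their intervals were tried on simulated independent counts, and the share intervals were not. The simulated ratios did not reach that of the CRA1 exon skipping event. A share of 0 was limited by 3 reads. Table starts were read as counted from 0 (583 of 810 exons then equal an annotated exon, against 1) and are printed from 1. The chromosomes carry the accessions of RefSeq's TAIR10.1 assembly, which gave sequence and annotation. A locus is the listed gene or, where that overlaps no exon of the event on its strand, the gene that does. All events in either gene are named, with the 5 loci of nearest profile. Genes, lists and rules were chosen with earlier results of these data known. Alternatives changed the reads counted, the joined values, the scaling, the pseudocount and the events counted.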

Additional observations from a re-analysis of the deposited data

How the results depend on the processing

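The ratios stayed above 1 under each alternative tried. Single pairs of a mutant and a wild-type value were not among these, and over them the CRA1 skipping ratio ran from 0.215 to 9.70. From inclusion reads alone the ratios were 19.7 (CRA1 longer-end event), 16.0 (middle-end), at least 10021 (exon skipping) and 5.82 (PAP85). In settings chosen after seeing the data, which also left out a joined value of both genotypes, these were 13.8 to 34.8, 12.6 to 18.3, at least 3350 to 9333 and 1.83 to 10.6, the lowest of each without value 3. From skipping reads alone they were 3.86 in each of the 3 CRA1 events, which share these reads, and 81.7 for PAP85. Divided by the median ratio over all loci they were 31.7, 30.3, 782 and 27.5. With the median of the joined values the middle-end ratio was 12.4. Leaving out the joined value of each position in both genotypes gave ratios of 11.3 to 21.9 (longer-end), 11.7 to 16.6 (middle-end), 163 to 662 (exon skipping) and 8.33 to 18.3 (PAP85). The same step gave wild-type shares of 59.0% to 77.3% (longer-end) and 82.1% to 100% (PAP85). It gave mutant shares of 88.1% to 95.0% (longer-end), 94.9% to 97.8% (middle-end), 97.0% to 99.5% (exon skipping) and 21.8% to 47.8% (PAP85). The unweighted mean of the 3 shares was 96.8% for the mutant exon skipping event, and 79.2% and 35.3% for PAP85 in the wild type and the mutant. Positions may not correspond between genotypes. Events over 10-fold higher in the mutant numbered 18, and 9 among those joining sites within 10 kb, 11 with 1 entry per locus by the event of most reads and 10 by that of fewest; fewer entries were counted in these. A pseudocount of 1 read moved no ratio beyond its interval. No paired analysis was possible because each genotype is 1 sample and no label pairs the joined values. The PAP85 wild-type share rests on 57 reads, 8 of them in value 3.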
